A study of Mus musculus with 14 samples.

Results

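Polycomb repressive complex 2 (PRC2) was examined in peritoneal B-1a cells of mice, an innate-like class of B cell, through the 10 genes that encode its core and accessory subunits: Ezh1, Ezh2, Eed, Suz12, Rbbp4, Rbbp7, Mtf2, Phf19, Jarid2 and Aebp2. Every non-control probe that the array's design assigns to one of these names was taken, which gave 17 probes out of 55681 under 34821 gene names. Cells labelled Bmi1 KO (7 arrays) were compared with cells labelled wild type (WT, 7 arrays). The samples belong to 2 experimental sets, assigned here from how their titles are numbered, with 3 KO and 3 WT arrays in set 1 and 4 of each in set 2. Bmi1 is a subunit of PRC1, the other Polycomb complex. The labels give the genotype and the cell source, and no strain, age, allele, deleted part of Bmi1, sorting gate or source animal for each sample.

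PRC2 methylates lysine 27 of histone H3, a mark of silenced developmental genes that some PRC1 complexes bind. One catalytic subunit, EZH2 or EZH1, works with EED, which reads the mark, with SUZ12, the scaffold, and with RBBP4 or RBBP7, which hold histone tails. MTF2 and PHF19 belong to one form of the complex (PRC2.1) and JARID2 and AEBP2 to the other (PRC2.2). In B cells, EZH2 is best known from dividing precursors and germinal centre cells, while EZH1 is the form kept by resting cells.

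The arrays read each gene through 60-base oligonucleotides, so a value speaks for the stretch of transcript that its probe covers. Coordinates are those of the array files (mouse build mm9), and positions along a transcript are those of the design. RefSeq (GRCm38.p6) held 16 of the 17 probes' transcripts, all 16 under the same symbol; the exception is an Ezh1 probe designed on an Ensembl transcript. The sequences below belong to the probes on which the following comparisons turn, read 5′ to 3′ along the transcript. The Ezh1, Rbbp7 and Aebp2 stretches given in full are protein-coding: the Ezh1 one encodes part of the catalytic SET domain and the Rbbp7 one part of a WD40 repeat. The others are shown as 30-base pieces, the first 30 bases unless stated. Capitals mark the polyadenylation signal AATAAA, searched on the transcript strand.
Ezh1, SET domain probe, chr11:101054534-101054593, minus strand: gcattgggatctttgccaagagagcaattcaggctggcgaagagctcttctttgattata
Ezh1, brightest probe, chr11:101052680-101052739, minus strand: taaaacatgtcggttctagactgagctcag
Ezh1, transcript-end probe, chr11:101052430-101052489, minus strand, last 30 bases: acctcttatctAATAAAgtgttaagactcc
Ezh1, probe on the Ensembl transcript, chr11:101058722-101058781, minus strand: ctgaagttcttttagaactctttcttttcc
Ezh2, chr6:47480307-47480366, minus strand: gctgcaaagtgttttgtaccagtgagtttt
Rbbp4, upstream probe, chr4:128986934-128986993, minus strand: ctggcagttgttccactggtgaactgtcaa
Rbbp7, coding probe, chrX:159212501-159212560, plus strand: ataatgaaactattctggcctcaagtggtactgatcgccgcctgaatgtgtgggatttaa
Aebp2, coding probe, chr6:140596546-140596605, plus strand: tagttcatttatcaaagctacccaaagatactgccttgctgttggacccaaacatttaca
The transcript-end probe of Ezh1 is the only one of the 17 that holds AATAAA; the same letters occur in 10.1% of all 55681 probes.

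A level is given throughout as the log2 signal of a probe minus the 75th percentile of the spots on its array, so 0 is the signal of a spot at that percentile. Levels compare one probe between arrays, and not different probes with each other. A probe is called detected where the scanner software marked it well above background. Between 43.7% and 63.1% of spots were well above background on the WT arrays and between 20.6% and 56.6% on the KO arrays. On 4 KO arrays the share was under 40%: replicate 4 of set 1 and replicates 1, 2 and 3 of set 2. Fits without these 4 keep only KO replicates 2 and 3 of set 1 and replicate 4 of set 2, so their tests have less power. The 75th percentile itself was at a log2 signal of 7.09 to 7.99 in WT and 3.63 to 8.22 in KO samples. On KO replicate 2 of set 2 it was 3.63, under the lowest signal of any detected probe of that array, 4.14, so the reference there is background. On KO replicates 1 and 3 of set 2 it was 5.04 and 5.29. A level on these 3 arrays can therefore be high without a higher signal. Set 1 lay on slide 1; slide 2 held the 4 KO arrays and 2 WT arrays of set 2, and slide 3 the other WT arrays. The median probe was 0.32 higher in KO than in WT samples on the log2 scale, and differences are also given relative to that median.

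For the labelled cell type, the B cell receptor gene Cd79a was well above background on all 14 arrays, while Cd5 passed on 3 of 7 KO and 6 of 7 WT arrays. Of the macrophage markers, Itgam (also known from peritoneal B-1 cells), Emr1 and Csf1r were above background on all 14 arrays. The summed linear level of the 10 macrophage markers on the array ran from 305 to 12000 in KO and from 405 to 1110 in WT samples, 1 being a spot at the 75th percentile, and 4 to 9 of the 10 were detected on KO and 6 to 10 on WT arrays. Most of that sum was Itgam, with mean levels of 10.46 in KO and 9.36 in WT samples, against 3.98 and 3.29 for Csf1r. Timd4 was detected on 1 KO and 2 WT arrays, Gata6 on 2 and 2, and C1qa on 3 and 2. Lyz2 was detected on 4 KO and 7 WT arrays, Cd68 on 6 and 7, Cd14 on 4 and 5, and Marco on 3 and 6. Being mostly Itgam, the sum says little about the other markers, and the share of macrophage RNA was not tested. The sum of 9 B cell markers also ran more widely in KO samples, from 282 to 5280 in KO and from 218 to 751 in WT samples, and both sums were highest on KO replicate 2 of set 2. That array had the lowest 75th percentile, which raises such sums. For 8 T and NK cell markers the sum ran from 2.55 to 26.3 in KO and 2.55 to 8.28 in WT samples, and no mast cell and granulocyte or mesothelial marker passed the filter (0 of 8 and 0 of 5). Of the 8, however, 5 were detected on KO replicate 2 of set 1 and 3 each on WT replicates 3 and 4 of set 2. Their part in the PRC2 values was not tested, and in bulk RNA fewer cells of a type and less RNA per cell cannot be told apart. Bmi1 had 2 probes: the brighter ran from -1.57 to 3.78 (median 2.58) in KO and from -3.12 to 2.09 (median 1.22) in WT samples, with an adjusted p of 0.547. The other ran from -3.15 to 2.62 in KO and from -5.32 to -2.19 in WT samples. Neither was lower in the samples labelled KO, and without the deleted part these probes do not check the labels.

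PRC2 subunit transcripts were found in both genotypes with 1 exception. Between 13 and 16 of the 17 probes were well above background on each WT array (median 15), and between 4 and 17 on each KO array (median 10). The KO array with 4 probes above background, replicate 2 of set 2, was also the one with the lowest share of spots above background (20.6%), and the KO array with all 17 was replicate 3 of set 1, at 56.1% of spots. Rbbp7 (both probes) and the upstream Rbbp4 probe were detected on all 14 arrays. The brightest Ezh1 probe, Suz12 and Jarid2 were detected on 7 WT and 6 KO arrays. Ezh2 was the exception, with 0 WT and 2 KO arrays.

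**Figure D1:**
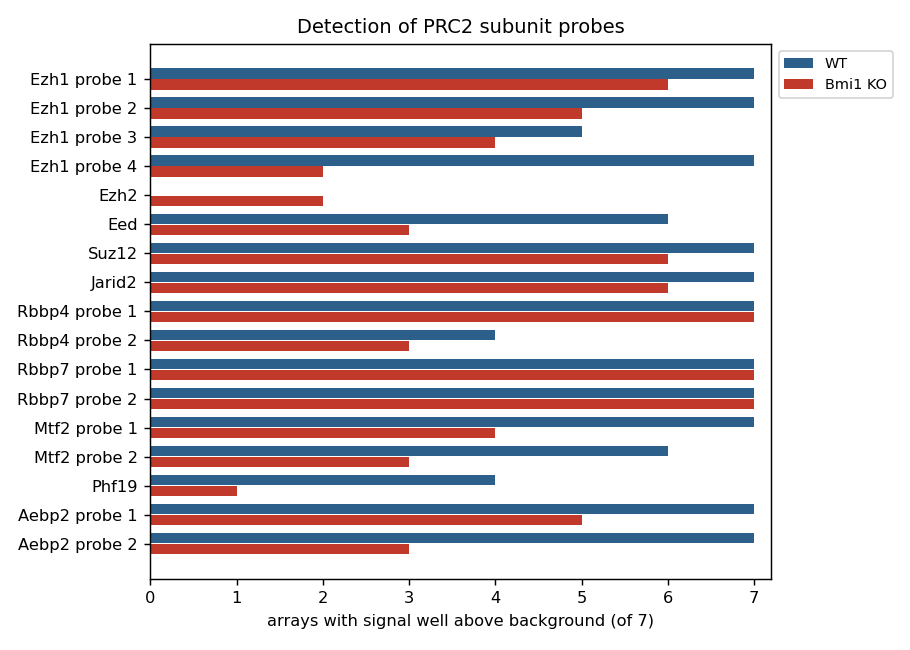
Number of arrays, of 7 WT (blue) and 7 Bmi1 KO (red), on which each of the 17 PRC2 probes was well above background; probes of a gene are numbered by their mean signal. WT bars reach 7 for 11 probes, KO bars for 3, and Ezh2 has no WT bar.

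No subunit passed the test between genotypes. Of 29679 probes tested with limma, 9 had an adjusted p under 0.05 (0.0303%), 1 higher and 8 lower in KO samples, and 0 of the 16 PRC2 probes tested were among them. Scaling by the probes detected on every array changed that split to 1 higher and 139 lower, and again held 0 PRC2 probes. The lowest adjusted p of a PRC2 probe was 0.31. At an unadjusted p under 0.05, 2 PRC2 probes were higher, where all probes gave 8.18%, and 1 was lower, where all probes gave 5.38%. Scaled by the probes detected on every array, 0 were higher and 4 lower. That scaling moved the median difference of all probes to -0.73, and the share of all probes was not counted there. The 4 are therefore not a result about PRC2. Genotypes did not overlap for 0 PRC2 probes and for 0.259% of all probes. The median difference of the 16 probes was 0.14, which is -0.18 relative to all probes, and 8 of the 16 lay above the median of all probes. The median standard deviation over 7 arrays was 2.09 in KO and 1.09 in WT samples for PRC2 probes, and 1.89 and 1.10 over all probes.

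**Figure D2:**
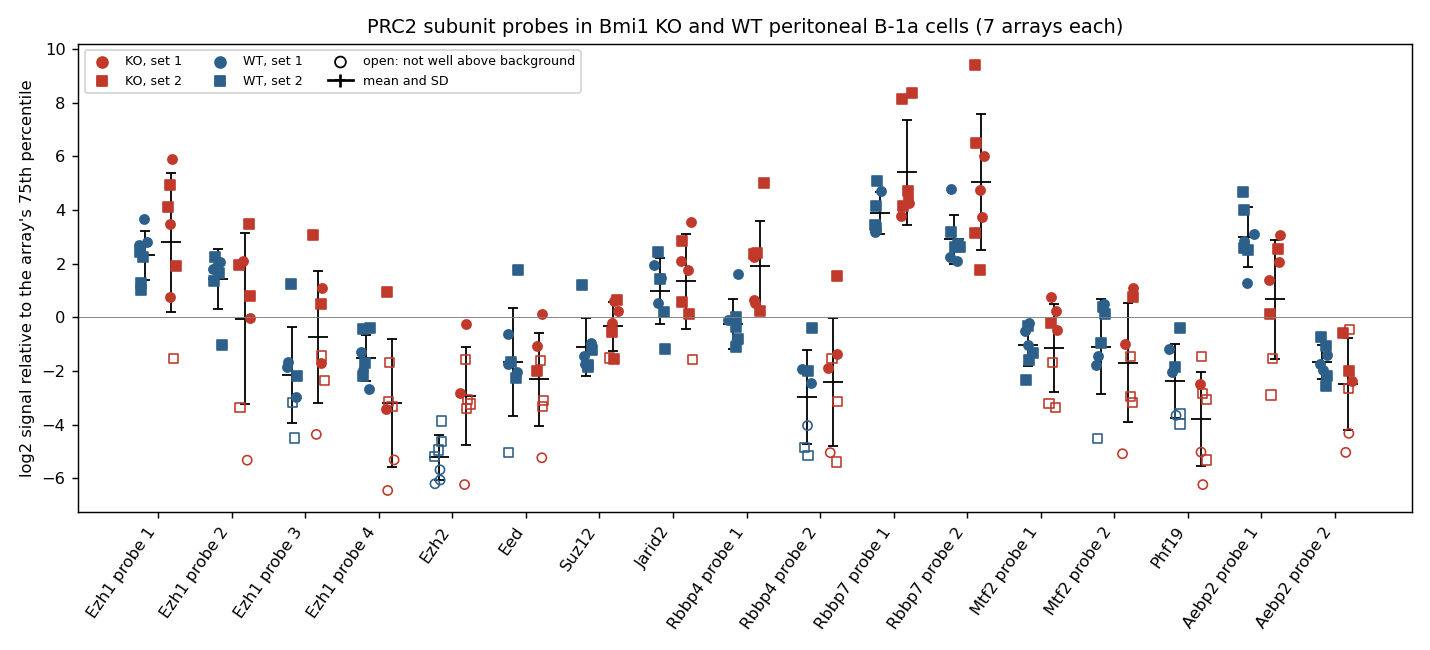
Level of each PRC2 probe on each array (log2 signal relative to the array's 75th percentile), WT in blue and KO in red, circles for set 1 and squares for set 2, open where not well above background; black bars are means and SD (n = 7). The genotypes overlap for every probe, and the KO points spread more widely than the WT points for 15 of the 17 probes.

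The catalytic subunits were read by 4 Ezh1 probes and 1 Ezh2 probe. Levels of the brightest Ezh1 probe, 3883 bases into the transcript, ran from -1.53 through a median of 3.50 to 5.91 in KO and from 1.04 through 2.43 to 3.68 in WT samples. Of the KO arrays, 3 lay above all WT arrays and 2 below all of them. The means were 2.80 ± 2.58 in KO and 2.31 ± 0.91 in WT samples (SD, n = 7), a difference of 0.49 ± 0.95 (SE; adjusted p = 0.816).

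The SET domain probe, 2248 bases into the same transcript, ran from -5.32 through 0.81 to 3.50 in KO and from -1.03 through 1.82 to 2.27 in WT samples. It was above background on 5 KO and 7 WT arrays, with a difference of -1.48 ± 1.17 (SE; adjusted p = 0.531), and of -0.54 without KO replicate 4 of set 1. The transcript-end probe, at 4133 bases, was above background on 4 KO and 5 WT arrays, with a difference of 1.42 ± 1.06 (adjusted p = 0.507). It covers the polyadenylation signal printed above.

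The Ezh1 probe on the Ensembl transcript had the widest gap between genotypes in detection: 7 WT arrays and 2 KO arrays. Levels ran from -6.45 through -3.31 to 0.93 in KO and from -2.65 through -1.71 to -0.39 in WT samples, and 5 KO arrays lay below all WT arrays. The difference was -1.68 ± 0.80 (SE; adjusted p = 0.369), -3.09 in set 1 and -0.62 in set 2. All 5 KO values without detection are bounds set by background rather than measured levels. They are those of the 4 dim KO arrays and of KO replicate 2 of set 1. The set 1 difference uses -6.45 and -5.31 among them, and the probe passed the filter only through its WT arrays. The differences of the 4 Ezh1 probes had both signs, 2 each way, and that of the brightest probe, relative to all probes, was negative in 9 of 25 alternatives. Without the 4 dim KO arrays the brightest, SET domain, transcript-end and Ensembl probes were at -0.37, -0.06, 0.66 and -0.82 relative to all probes, against 0.17, -1.80, 1.10 and -2.00 with them. Across the 14 arrays their pairwise Pearson correlations ran from -0.31 to 0.51.

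Ezh2 was not measured in WT cells. On the unscaled log2 scale its signal ran from 1.66 through 2.12 to 3.50 on the WT arrays, where the lowest signal of any probe well above background was 3.62 to 4.18. On the KO arrays it ran from 1.77 through 2.06 to 6.74. Above background were KO replicate 3 of set 1, at 5.43, and KO replicate 4 of set 1, at 6.74. The remaining 5 KO arrays were at 1.77 to 3.96, not well above background. So before scaling, 2 KO arrays stood apart, while the medians of the genotypes lay close together.

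**Figure D3:**
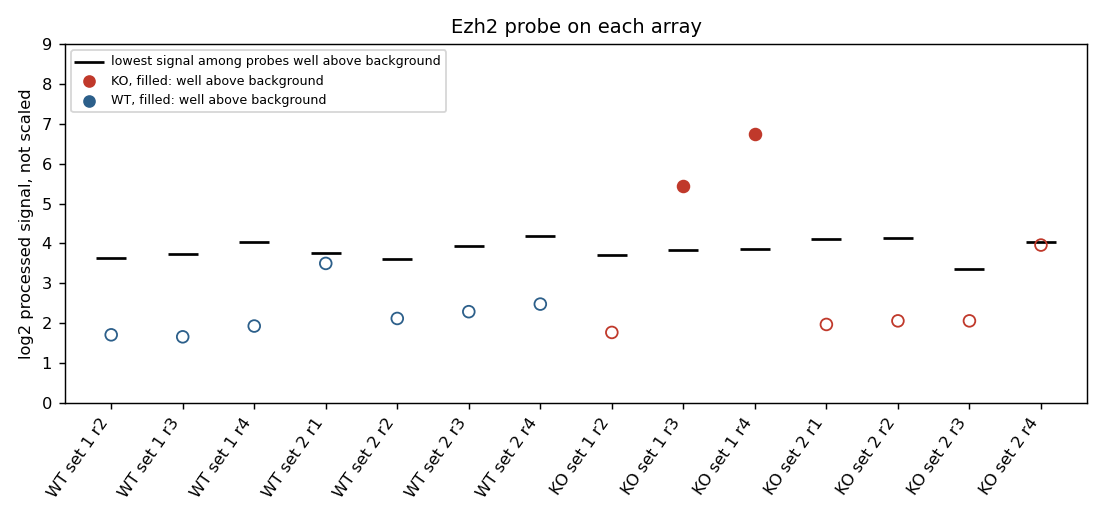
Unscaled log2 processed signal of the Ezh2 probe on each array (WT in blue, KO in red, filled where well above background), with a black dash at the dimmest signal of any detected probe of that array. The 7 WT circles are open and under their dashes; KO set 1 replicates 3 and 4 are filled, at 5.43 and 6.74.

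After scaling, Ezh2 levels were -2.93 ± 1.84 in KO and -5.22 ± 0.84 in WT samples (SD, n = 7), a difference of 2.28 with an exact permutation p of 0.00714 over 1400 arrangements of genotype within sets (two-sided). With 12 of the 14 values not well above background, this compares mostly background over the percentile of each array, so it is no measure of a difference in Ezh2 transcript, and no fold is given. Of the KO arrays, 6 lay above all WT arrays, 4 of them with signals not well above background, 3 of which were on dim arrays. The difference was 1.38 without the 4 dim KO arrays (exact permutation p = 0.1), 1.24 when scaled by the probes detected on every array (exact permutation p = 0.14) and 1.25 after quantile normalization (exact permutation p = 0.0871). Without the dim arrays there are far fewer than 1400 arrangements, so that p has less power. The probe was outside the test across all probes, so its p is not adjusted for the number of probes.

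EED and SUZ12 complete the catalytic core. Suz12 ran from -1.56 through -0.22 to 0.65 in KO and from -1.84 through -1.43 to 1.21 in WT samples. The genotypes overlapped over most of the range: the highest array was WT replicate 4 of set 2, and without it the WT arrays reached only -0.95, a level that 5 KO arrays exceeded. The difference was 0.77 ± 0.64 (SE; adjusted p = 0.552), 1.58 in set 1 and 0.16 in set 2. Eed was above background on 3 KO and 6 WT arrays, at levels of -5.23 through -1.98 to 0.13 in KO and -5.03 through -1.73 to 1.75 in WT samples. Its difference was -0.65 ± 0.97 (adjusted p = 0.759), and 0.64 relative to all probes without the 4 dim KO arrays, against -0.97 with them.

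The histone-binding subunits gave the most complete measurements. RBBP4 and RBBP7 are WD40 proteins that also serve in deacetylase, remodelling and chromatin assembly complexes. The upstream Rbbp4 probe, 1757 bases into its transcript, had the lowest adjusted p of the 16 tested with limma. Its levels on the KO arrays were 0.54, 0.66 and 2.27 in set 1 and 2.37, 2.42, 5.02 and 0.25 in set 2. The WT arrays gave 1.63, -0.92 and -0.09 in set 1 and 0.03, -0.37, -0.80 and -1.12 in set 2. The 4 KO arrays above all WT arrays were the 4 dim ones.

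The upstream Rbbp4 probe differed by 2.17 ± 0.76 (SE; adjusted p = 0.31), which is 1.85 relative to all probes, with 0.95 in set 1 and 3.08 in set 2. Without the 4 dim KO arrays it was 0.68 relative to all probes (adjusted p = 0.992). The downstream Rbbp4 probe, at 4068 bases, was above background on 3 KO and 4 WT arrays and differed by 0.57 ± 1.05 (adjusted p = 0.807). The 2 probes of Rbbp4 had a Pearson correlation of 0.04 over the 14 arrays.

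Rbbp7 was well above background in every sample through both probes. The coding probe ran from 3.78 through 4.46 to 8.37 in KO and from 3.20 through 3.43 to 5.10 in WT samples, and KO replicates 1 and 2 of set 2, at 8.13 and 8.37, lay above all WT arrays. The difference was 1.52 ± 0.76 (SE; adjusted p = 0.373). The second probe, at 1842 bases, ran from 1.75 through 4.76 to 9.40 in KO and from 2.12 through 2.64 to 4.79 in WT samples, a difference of 2.14 ± 0.98 (adjusted p = 0.368). Relative to all probes and without the 4 dim KO arrays, the coding probe differed by 0.56 and the second probe by 0.41. These 2 probes had the highest correlation of any pair on one gene (Pearson's r = 0.81, and 0.86 after the mean of each genotype and set was taken off).

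Of the PRC2.1 subunits, Mtf2 recruits the complex to CpG islands and Phf19 is its Tudor domain paralog. The brighter Mtf2 probe ran from -3.36 through -0.48 to 0.78 in KO and from -2.35 through -1.02 to -0.22 in WT samples. The difference was -0.09 ± 0.63 (SE; adjusted p = 0.956), with 2 KO arrays above and 2 below all WT arrays. The second Mtf2 probe was above background on 3 KO and 6 WT arrays and differed by -0.60 ± 1.02 (adjusted p = 0.791). Without the 4 dim KO arrays the Mtf2 probes were 0.86 and 1.48 higher relative to all probes, against -0.41 and -0.92 with them, and passed no test either way (adjusted p of 0.953 and 0.966 without them).

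Phf19 was dim: it was above background on 4 WT arrays and on 1 KO array, replicate 3 of set 1. Its levels ran from -6.23 through -3.06 to -1.47 in KO and from -3.97 through -2.03 to -0.40 in WT samples. The difference was -1.39 ± 0.83 (SE, adjusted p = 0.42). Relative to all probes it was negative under each of the 25 alternatives that tested it, from -2.27 to -0.35. The probe passed the filter only through its WT arrays, and all KO values but that of replicate 3 of set 1 are background. The constant sign is therefore no support for a lower level in KO cells.

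Of the PRC2.2 subunits, Jarid2, a catalytically inactive Jumonji protein that binds PRC2 and nucleosomes, ran from -1.57 through 1.76 to 3.56 in KO and from -1.17 through 1.45 to 2.43 in WT samples. Its difference was 0.36 ± 0.76 (SE; adjusted p = 0.834), within the spread of either genotype. Aebp2 is a zinc finger cofactor that binds nucleosomes. Its coding probe gave KO levels of 3.06, 2.06 and 1.41 in set 1 and of -2.89, -1.53, 0.11 and 2.54 in set 2. The WT arrays gave 1.27, 3.1 and 2.84 in set 1 and 2.59, 4.02, 2.51 and 4.68 in set 2.

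The 3 Aebp2 values below all WT arrays were those of the dim KO arrays of set 2, and 2 of the 3 were not well above background. The difference was -2.32 ± 0.90 (SE; adjusted p = 0.338), -0.23 in set 1 and -3.89 in set 2. Within slide 2 alone it was -2.99 (4 KO arrays, 3 of them dim, and 2 WT arrays). With slide in place of set as covariate in limma it was -1.53 (adjusted p = 0.54). With set as covariate and relative to all probes, the difference was -2.64 with, and -0.16 without, the 4 dim KO arrays. The second Aebp2 probe, at 6084 bases on another transcript model, was above background on 3 KO and 7 WT arrays and differed by -0.82 ± 0.68 (adjusted p = 0.549). It differed by -2.20 in set 1 and 0.22 in set 2. The KO values of replicates 2 and 4 of set 1, -4.32 and -5.03, were not well above background. The probe passed the filter only through its WT arrays, so nothing is read from its order of the sets.

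**Figure D4:**
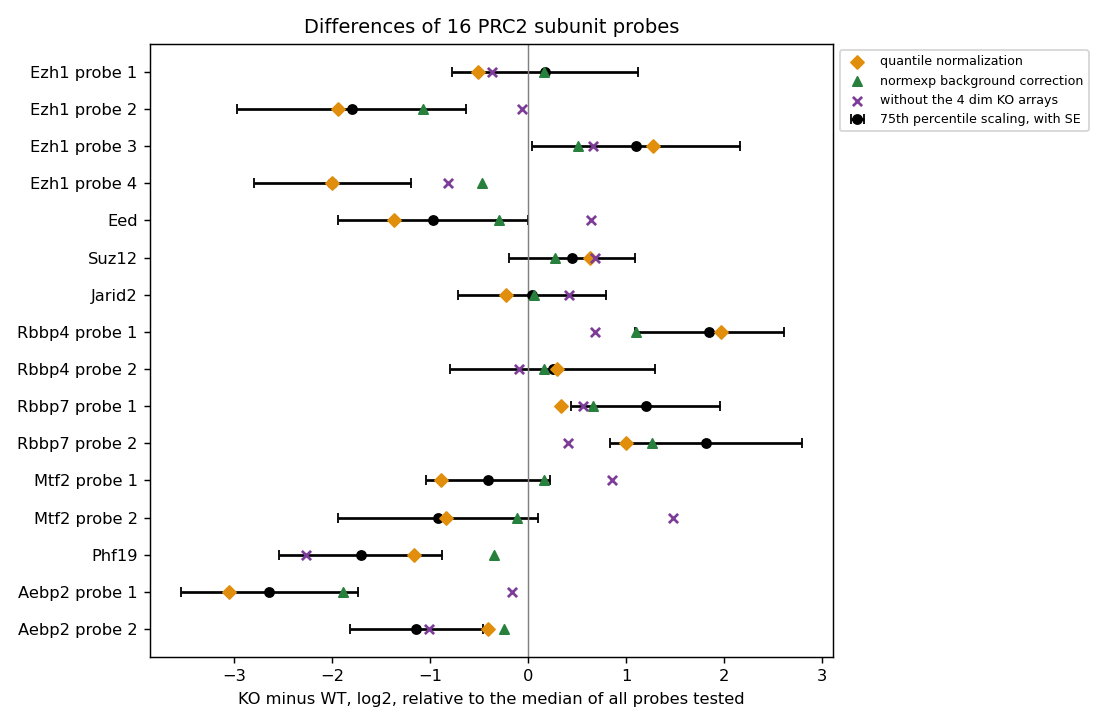
KO minus WT difference of the 16 PRC2 probes tested, in log2 relative to the median of all probes tested, for the 75th percentile scaling (black, bars are SE), quantile normalization, normexp background correction and the fit without the 4 dim KO arrays. The crosses of the last fit lie nearer to 0 than the black points for Rbbp4 probe 1, both Rbbp7 probes and Aebp2 probe 1, and on the other side of 0 for Eed, both Mtf2 probes, Ezh1 probe 1 and Rbbp4 probe 2.

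Sets 1 and 2 were also tested apart. In set 1, 0.0236% of all probes had an adjusted p under 0.05, in set 2 0.0135%, and in both sets 0 of the 16 PRC2 probes did. The difference between the sets passed for 0% of all probes and 0 PRC2 probes (lowest adjusted p of a PRC2 probe 0.876). Its largest sizes were -3.67 for the Aebp2 coding probe and 2.67 for the Ezh1 SET domain probe, set 2 minus set 1. Both rest in part on KO values not well above background. These include -2.89 and -1.53 in set 2 for Aebp2 and -5.32 in set 1 for Ezh1.

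The balance between subunits that replace each other, or that share a form of the complex, was compared within each array, where scaling cancels. Only the change of such a difference between genotypes can be read, since probes differ in brightness. The Jarid2 minus Aebp2 difference ran from -1.97 to 3.01 on KO and from -5.85 to 0.69 on WT arrays. Aebp2 was not well above background on KO replicates 1 and 2 of set 2, nor Jarid2 on replicate 2. The value of 3.01 is that of replicate 1. For this pair the KO mean was 2.68 above the WT mean, the largest of the 4 pairs compared (exact permutation p = 0.0471, 0.169 after Benjamini-Hochberg adjustment over the 4). Without the 4 dim KO arrays it was 0.58, with the second brightest probes 1.18, and another pair was then the largest. The Ezh2 minus Ezh1 difference was 1.79 higher in KO samples (exact permutation p = 0.0843, adjusted 0.169), with Ezh2 at background on 12 of the 14 arrays. It was 0.93 without KO replicate 2 of set 2, 0.42 after normexp and 3.76 with the second brightest Ezh1 probe. Mtf2 minus Phf19 was 1.30 higher (exact permutation p = 0.294, adjusted 0.392), with Phf19 not well above background on 6 KO and 3 WT arrays and neither gene detected on 3 KO arrays. It was 0.70 without KO replicate 4 of set 2, 0.51 after normexp, 0.80 with the second Mtf2 probe and 3.13 without the 4 dim KO arrays. Rbbp4 minus Rbbp7 was 0.64 higher (exact permutation p = 0.577, adjusted 0.577), and turned to -1.57 with the second brightest probes. No pair passed after adjustment, with these 4 tests or under the alternatives run.

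**Figure D5:**
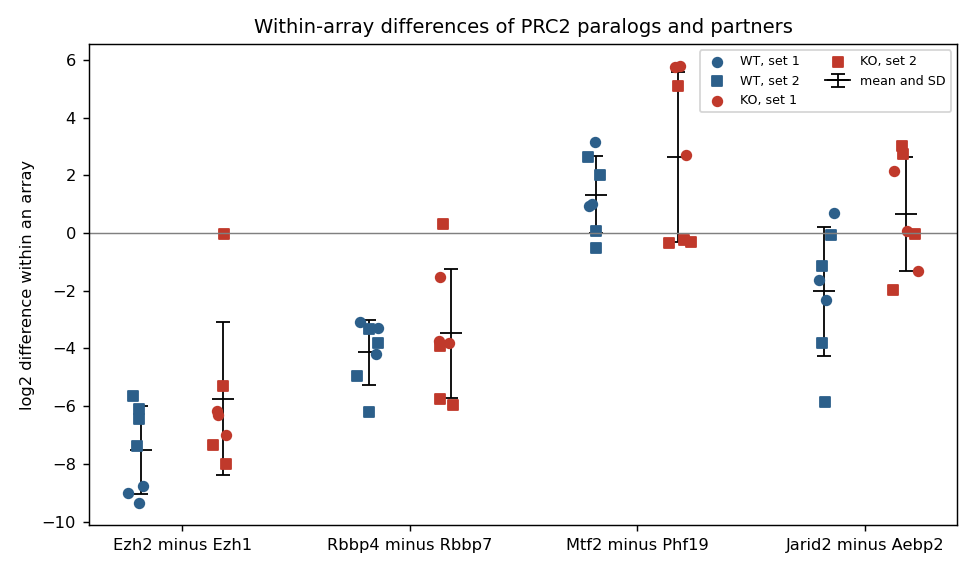
Within-array log2 difference between the brightest probes of 4 pairs of PRC2 subunits, WT in blue and KO in red, circles for set 1 and squares for set 2; black bars are means and SD (n = 7). The height of a pair depends on its probes and has no meaning by itself; WT and KO points overlap in all 4 pairs.

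Across the 14 arrays, which share the scaling, some members varied together, and these correlations are given as descriptions. Ezh1 and Jarid2 had a Pearson's r of 0.70 over the brightest probes (0.68 after the mean of each genotype and set was taken off). Rbbp7 and Aebp2 had -0.81 and Rbbp4 and Aebp2 -0.75. Probes of the same 3 genes followed the brightness of the arrays, though not they alone. Pearson's r with the unscaled 75th percentile was -0.84 and -0.72 for the Rbbp7 probes, -0.66 for the upstream Rbbp4 probe and 0.80 for the Aebp2 coding probe. Spearman's rho was weaker, at -0.51, -0.43, -0.40 and 0.49 in that order. Ezh2 had r = -0.55 and rho = -0.60, and the brighter Mtf2 probe 0.61 and 0.51. Because each level has this percentile taken off, part of a negative correlation with it is built in. That holds most for Ezh2, with 12 of 14 values not well above background, so its correlation is no result about Ezh2. The second Aebp2 probe had the other sign (-0.36 and -0.24). Ezh1 (0.18) and Suz12 (-0.04) followed it least among the brightest probes of the members.

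Of 20358 gene names compared, the 5 whose brightest probe was most like Ezh2 over the 14 arrays had a Pearson's r of 0.85 to 0.90. Those with a gene symbol were Nasp, a histone chaperone (0.85, above background on all arrays), and Lta4h, an enzyme of leukotriene synthesis (0.85, above background on 4 KO and 2 WT arrays). As 12 of the 14 Ezh2 values were not well above background, this likeness describes mostly background and scaling on those arrays.

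Genes that act with or against PRC2 also gave 0 calls in either direction, each gene by its brightest probe. Of 5 other PRC2 partners on the array, 4 were tested, and Phf1, the remaining Tudor domain paralog of Mtf2, differed by -1.26 ± 0.80 (SE; adjusted p = 0.438). Ezhip, an inhibitor of EZH2 listed as AU022751, differed by 0.90 ± 0.55 (adjusted p = 0.427). Lcorl, related to a PRC2.1 partner, differed by -0.27 ± 0.90 (adjusted p = 0.899). Of 7 genes for demethylases of the PRC2 mark and for removal of the PRC1 mark on histone H2A, 6 were tested. Kdm6a, a demethylase that removes the PRC2 mark, differed by -0.03 ± 0.78 (adjusted p = 0.99). Usp16, an H2A deubiquitinase, differed by 1.67 ± 0.82 (adjusted p = 0.371). Asxl1 and Asxl2, partners of the deubiquitinase BAP1, differed by 2.06 ± 1.20 (adjusted p = 0.41) and -2.53 ± 1.15 (adjusted p = 0.368).

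Of 21 PRC1 subunits, 15 were tested, with a median of 0.05 relative to all probes. Phc3 and Phc2, polyhomeotic subunits, differed by 1.27 ± 0.80 (SE; adjusted p = 0.44) and -0.84 ± 0.79 (adjusted p = 0.607). Phc1, of the same family, differed by -1.04 ± 0.88 (adjusted p = 0.562), and Pcgf5, a paralog of Bmi1, by 1.04 ± 0.62 (adjusted p = 0.416). Of 17 members of the other complexes that hold RBBP4 or RBBP7, 15 were tested, with a median of 0.10 relative to all probes. Mta2 and Mta1, alternative subunits of the NuRD deacetylase complex, differed by 1.69 ± 0.63 (adjusted p = 0.324) and -2.28 ± 1.0 (adjusted p = 0.362). Mbd2 and Gatad2b, of the same complex, differed by 1.56 ± 0.69 (adjusted p = 0.365) and -0.62 ± 1.08 (adjusted p = 0.797).

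Of 18 replication and mitosis genes, 15 were tested, with a median of 0.31 relative to all probes. Mki67, a marker of cycling cells, was above background on all 14 arrays at 4.76 in KO and 1.18 in WT samples, a difference of 3.58 ± 1.12 (SE; adjusted p = 0.281). Its levels on the dim KO replicates 1, 2 and 3 of set 2 were 6.63, 9.96 and 5.16. Ezh2 was not well above background on replicate 2, but only 4 of the 17 PRC2 probes were there. On the 2 KO arrays with Ezh2 signal Mki67 was at 3.13 and 1.83, within the range of the other KO arrays. A link between Ezh2 signal and cycling was not tested. Pcna, the replication clamp, differed by 1.53 ± 0.62 (adjusted p = 0.349) and E2f1, a cell cycle transcription factor, by -2.02 ± 0.74 (adjusted p = 0.321). Foxm1, a mitotic transcription factor, differed by -1.52 ± 1.11 (adjusted p = 0.496), with signal above background on 1 KO and 4 WT arrays.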

How the data were processed

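RNA of 14 samples was hybridised to one-colour Agilent arrays, 1 array per sample. Per the file headers, spot intensity was extracted by the authors with Agilent Feature Extraction 10.7.3.1, and positions refer to mm9. Per-spot marks for detection over background, saturation and outlier pixels are deposited as a score of 0 or 1. The deposited processed log2 values, made by a method not given in the sources used here, served as an alternative; every sample has a median of 3.952 there, and the scale, lack of gene centring and direction followed the scanner values.

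Here, log2 processed intensity was scaled to each array's 75th percentile, outlier spots were dropped and spots of a probe averaged. Probes well above background on at least 4 of 7 arrays of a genotype were tested with limma 3.58.1 in R 4.3.3 (data.table version 1.17.8) with the experimental set as covariate in two-sided tests, adjusted by Benjamini-Hochberg over 29679 probes, threshold 0.05; this was tested on simulated data. Ezh2 and the within-array pairs were tested by exact permutation. 0 spots of any array were saturated. Whether samples are separate animals is not in the labels: p-values reflect only differences among these samples, possibly technical ones, and precision is limited by having 7 arrays a group. The members and lists were chosen with earlier results of these data known. Named were all members, the 2 list genes of lowest p per direction and the 5 names most like Ezh2. Figures used matplotlib 3.10.9 in Python 3.11.15. Alternatives covered scaling, background correction, filter, covariates, probe choice and leaving out arrays.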

Additional observations from a re-analysis of the deposited data

Results flagged for a closer look

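In 4 of the 34 groups of 7 values checked (17 probes in each genotype), 1 array stood far from the other 6. Independent normal values would give about 1 in 20. The groups share arrays and the share over all probes was not counted, so no excess in PRC2 probes can be read from this. Ezh1 was low through its SET domain probe on WT replicate 4 of set 2 (-1.03), although above background there. On the same array Suz12 was high (1.21). On WT replicate 2 of set 1 the upstream Rbbp4 probe (1.63) and the second Rbbp7 probe (4.79) were both high. All 4 values were on WT arrays and well above background.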

How the results depend on the processing

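The count of PRC2 probes with an adjusted p under 0.05 was 0 higher and 0 lower under all 26 alternatives. Their median difference relative to all probes ran from -0.47 to 1.07, with 1.07 when probes had to be above background on all 14 arrays, which left 3 PRC2 probes; leaving out 1 array gave -0.43 to -0.03. The Ezh2 difference stayed positive (0.86 to 2.82) but passed no longer when scaled by the probes detected on every array (1.24, exact permutation p = 0.14), after quantile normalization (1.25, p = 0.0871), with the deposited values (1.26, p = 0.0871) and without the 4 dim KO arrays (1.38, p = 0.1); the cause was not tested. Leaving out 1 array gave 1.70 to 2.82. All these Ezh2 values rest mostly on background. Rbbp4 minus Rbbp7 turned to -1.57 with the second brightest probes and to -0.10 without KO replicate 3 of set 2, within a range of -0.10 to 1.01 without 1 array. Relative to all probes, and by the brightest probe of each gene, Suz12, Rbbp4 and Rbbp7 stayed positive and Phf19 and Aebp2 negative under every alternative run, while Ezh1, Jarid2, Eed and Mtf2 took both signs. Scaling by the probes detected on every array, dropping the set covariate and the replicate block leave these values unchanged by design. Most other alternatives leave out 1 array, so the constant signs are no independent support. Phf19 also passed the filter only through WT arrays. Not taken relative to all probes, Suz12 was at -0.28 when scaled by the probes detected on every array. Replicate numbers within a set did not pair the samples (correlations of -0.22 to 0.19; 1 of 7 pairs correlated best with its own number). With the replicate block the Ezh2 difference was 2.28 (exact permutation p = 0.0312), 0 PRC2 probes were called and the lowest adjusted p was 0.416. Over all probes the count of calls was 9, and 65 without KO replicate 3 of set 1, 37 without KO replicate 4 of set 2, 140 when scaled by the probes detected on every array and 26 after quantile normalization.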
